A study of Solenopsis japonica with 2 samples.

Results

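Transcription factors and homeobox genes of the fire ant Solenopsis japonica are described here in a control group kept at 25 °C (T25) and in ants held at 9 °C (T9). The members were the contigs whose protein or nucleotide description named a homeobox, paired box, Pax, zinc finger, helix-loop-helix, transcription factor, forkhead, nuclear receptor, T-box or doublesex. Of the 4487 contigs of the deposited comparison, 89 matched, and 0 of these had to be dropped for a Kenyon cell name or a match to a mammal. They had 78 different best matches, because some contigs are pieces of the same gene, and 87 of them matched an ant. All ants were wild type adult workers from laboratory colonies kept at 25 °C, incubated for 24 h and used as whole bodies, so that gut, fat body, muscle, brain and antennae were sequenced together. One library was made from the pooled RNA of several workers at each temperature, so no difference can be set against the spread between pools of ants, and no test of temperature was possible.

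Transcription factors bind short stretches of DNA near genes and raise or lower their transcription. Homeobox genes encode a helical DNA-binding fold, the homeodomain, and include the Hox genes, which give body segments their identity, and the paired, LIM, cut and POU families, which pair the homeodomain with other domains and act in the development of eyes, brain and sense organs. Zinc finger proteins hold a zinc ion in a short loop, and most of those with C2H2 fingers bind DNA. In adult insects many such factors stay active in particular neurons, gut cells or fat body cells, where they keep the cell's own genes on.

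The levels are read counts for each contig of a de novo assembly. Folds are ratios of these counts scaled by library size, 53237356 for T9 and 49264352 for T25. The range in parentheses after a fold is an exact Clopper-Pearson 95% interval, which covers counting error only. The deposited table holds contigs that passed a filter of the authors, by its label on fold and raw p-value. The paper reports a far smaller set of unigenes as differentially expressed, so being listed here is a weaker call. The smallest fold in the table was 2.35, and a contig needed at least 1 count in both libraries to be listed. Hence the interval excluded 1 for 89 of 89 members, as it did for 4487 of 4487 contigs, and what can be read is the side on which a gene lay and its size. In whole-body RNA, fewer cells of a type and less RNA per cell cannot be told apart.

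Members lay on both sides. In T9, 42 of the 89 were higher (47.2%) and 47 were lower (52.8%), where 54.7% of all contigs of the table were higher and 45.3% lower. At least 5-fold higher were 19 members, beside 28.8% of all contigs, and at least 5-fold lower were 29, beside 24.0%. The smallest fold of a member was 2.38. Among members higher in T9 the median log2 ratio was 2.03, where the table had 2.15, and among those lower it was -2.25, where the table had -2.18. The sizes of the differences were therefore close to those of the table.

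The split differed with abundance. Of the 35 members with at least 100 counts over both libraries, 23 were higher and 12 lower (65.7% and 34.3%), beside 64.2% and 35.8% of the 1507 such contigs in the table. Of the 54 members with fewer counts, 19 were higher and 35 lower (35.2% and 64.8%), beside 49.9% and 50.1% of the 2980 such contigs. For 25 members the library with the lower count held 3 counts or fewer, and 17 of those 25 were lower in T9. Levels per length were low, with a median of 0.98 FPKM (a depth-scaled level per kilobase of contig) in T9 and 1.35 FPKM in T25. Only 11 members (12.4%) exceeded 10 FPKM in a library, beside 14.8% of all contigs.

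**Figure D1:**
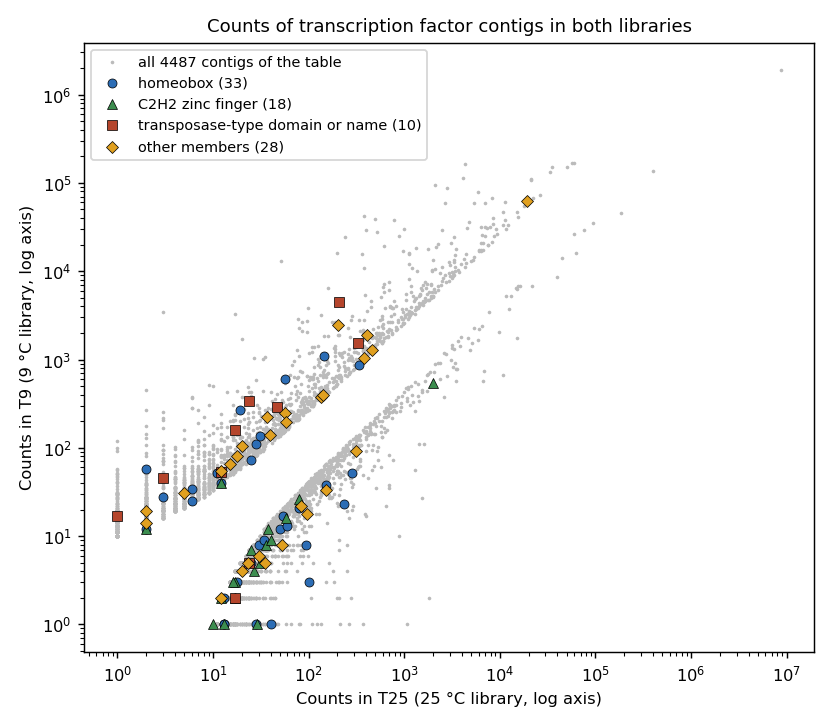
Counts of each contig in T25 (x axis) and T9 (y axis), both on log axes, with the 89 transcription factor contigs marked by DNA-binding group over all 4487 contigs in grey. The empty band along the diagonal is where contigs with a fold under 2.35 would lie, the green C2H2 triangles are mostly below it (16 of 18) and the red transposase-type squares mostly above it (8 of 10).

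The members were sorted by DNA-binding domain, from the Pfam domain where one was recorded (32 members) and otherwise from the description (57 members). The homeobox group held 33 contigs, 14 higher and 19 lower in T9 (42.4% and 57.6%), and counted once per best match it was 13 and 13. The best match was the gene of the nucleotide match, or the protein match where that was missing. Pieces of 1 gene that match different species therefore still count apart. Contigs placed with the zinc fingers by domain or name, transposase-type ones included, were higher in 12 and lower in 21 cases. Of the 18 C2H2 zinc finger contigs among them, 2 were higher and 16 lower, and only 1 of the 18 had a C2H2 domain in Pfam. Sox contigs were higher in 4 of 5 cases, GATA contigs in 2 of 2, forkhead contigs in 4 of 7 and basic helix-loop-helix contigs in 3 of 5. These counts stand beside 54.7% of all contigs of the table that were higher, and 64.2% of those with at least 100 counts. No T-box or doublesex name stood among the members. Since several groups are small and some contigs are pieces of 1 gene, these counts describe the contigs.

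**Figure D2:**
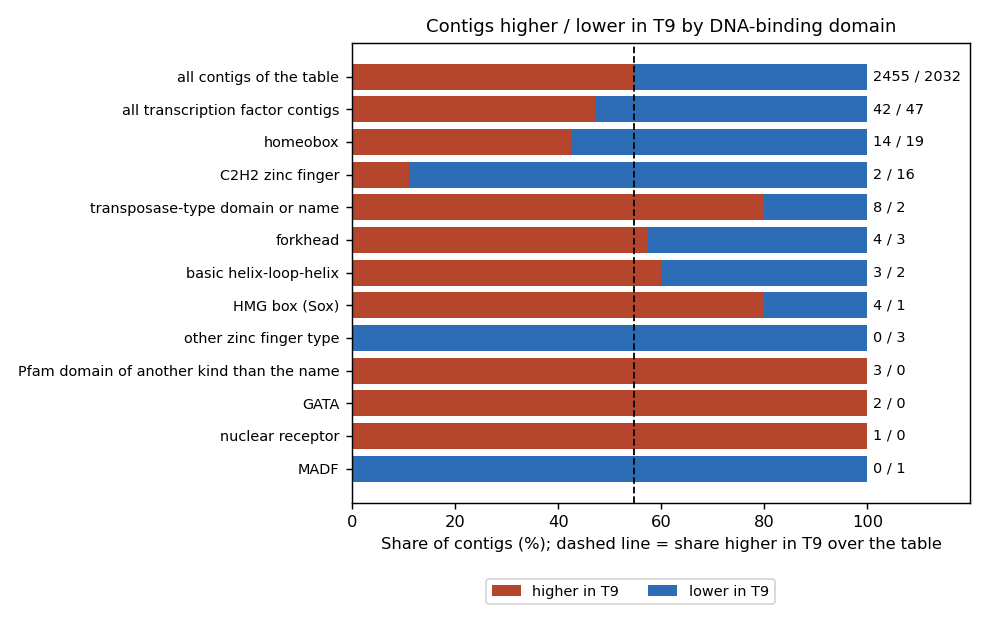
Share of contigs higher in T9 (red) and lower in T9 (blue) in the main DNA-binding groups, in percent, with the numbers higher / lower at the right and the dashed line at the 54.7% of all contigs that were higher. The C2H2 group reached 88.9% lower and the transposase-type group 80% higher.

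Paired-type homeobox genes, many of which act in the eye and the front of the brain, had 6 of 9 contigs lower in T9. The share lower over all contigs of the table was 45.3%. The 9 contigs had only 6 different best matches, and 1 of the lower contigs is a piece of OTX2, which as a gene showed no direction (below). Pax-6, the paired box factor that in Drosophila is encoded by eyeless and twin of eyeless and is needed for the eye and for parts of the brain, was lower in T9 in both of its contigs. Contig c86999_g1_i1, which carries the paired box itself and is tied to twin of eyeless in its ontology entry, had 23 counts in T9 and 234 in T25, 11.0-fold lower (7.15 to 17.7). Contig c84503_g1_i1 had 38 and 153 counts and was 4.35-fold lower (3.03 to 6.38). Together they gave 61 counts against 387, 6.86-fold lower (5.22 to 9.14). The intervals of the 2 contigs did not overlap, although both match 1 gene. The study chose c86999_g1_i1 for RT-qPCR, and those measurements were not analysed here.

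Other paired-type genes went both ways. Visual system homeobox 2, a retinal gene of vertebrates (c73762_g2_i1), had 8 counts in T9 and 30 in T25 and was 4.05-fold lower (1.82 to 10.2). Orthopedia (c82194_g2_i1), which in vertebrates specifies neuroendocrine cells of the brain, had 135 and 31 counts and was 4.03-fold higher (2.71 to 6.16). The insect Pitx gene Ptx1 (c76260_g1_i1) had 57 and 2 counts and was 26.4-fold higher (6.97 to 223), the largest fold of a homeobox contig on that side. The orthodenticle relative OTX2, a head and brain patterning gene, was split between pieces of 1 gene. Piece c31102_g1_i1 had 1 and 13 counts, 14-fold lower (2.11 to 597), and piece c31102_g2_i1 had 25 and 6 counts, 3.86-fold higher (1.54 to 11.5). Their sums of 26 counts in T9 and 19 in T25 had a ratio of 1.27 (0.674 to 2.42), an interval that holds 1, so for OTX2 the gene as a whole showed no direction.

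Among the Hox genes, 5 of 6 contigs were higher in T9, beside 54.7% of all contigs of the table. Those 5 carry only the names abdominal-A and Hox-B1a, so pieces of 1 gene may count apart. The Hox gene Sex combs reduced, whose name fell outside the search words, was lower and is described under the other observations. Abdominal-A, which specifies abdominal segments, was found in 3 contigs with different best matches. Contig c118315_g1_i1 had 52 counts in T9 and 11 in T25, 4.37-fold higher (2.25 to 9.30), and c57688_g1_i1 had 40 and 12, 3.08-fold higher (1.59 to 6.46). Contig c989_g1_i1 had 28 and 3 counts, 8.64-fold higher (2.67 to 44.4). All of the abdominal-A contigs were thus on the same side with overlapping intervals. Hox-B1a, whose contig c72846_g1_i2 is tied to the Drosophila head gene labial, had 110 and 28 counts there, 3.64-fold higher (2.38 to 5.72). The other Hox-B1a contig, c66582_g1_i1, had 73 and 25 counts and was 2.70-fold higher (1.70 to 4.44). The contig on the opposite side was Hox-A4 (c13622_g1_i1), with 1 count in T9 and 13 in T25, 14-fold lower (2.11 to 597).

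NK, LIM and cut homeobox genes, which are known for roles in neuron types, were mostly lower in T9. Nkx-2.4, related to Drosophila scarecrow, had 52 counts in T9 and 284 in T25 in contig c74554_g2_i1, 5.90-fold lower (4.38 to 8.09), and at 28.59 FPKM in T25 against 5.31 FPKM in T9 it was the most abundant homeobox contig per length in T25. Its other contig, c86006_g3_i1, had 13 and 60 counts and was 4.99-fold lower (2.71 to 9.90). The exception in the NK class was c87858_g1_i1, described as Nkx-2.5 and tied to nkx2.2a in its ontology entry, with 600 counts in T9 and 57 in T25, 9.74-fold higher (7.42 to 13.0). The LIM homeobox gene Awh (Arrowhead, c64570_g1_i2) had 2 and 17 counts, 9.19-fold lower (2.18 to 82.0). Lhx3 (c80222_g1_i1), a motor neuron factor in vertebrates and flies, had 9 and 34 counts, 4.08-fold lower (1.92 to 9.68). Both LIM contigs were therefore on the lower side.

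The cut gene onecut, a factor of neurons and photoreceptors in Drosophila, was the member with the most contigs, and its 4 pieces were all lower in T9. The counts in T9 and T25 were 21 and 80 in c86025_g1_i1, which carries the cut domain, 4.12-fold lower (2.52 to 7.01). In c87324_g2_i1 they were 17 and 54, 3.43-fold lower (1.96 to 6.32). The remaining pieces c81301_g1_i1 (12 and 50) and c87324_g3_i1 (5 and 25) were 4.5-fold (2.36 to 9.29) and 5.40-fold lower (2.03 to 18.1). Summed over the gene, 55 counts stood against 209, 4.11-fold lower (3.04 to 5.63), and the intervals of the pieces overlapped.

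Most markers of neurons lay on the same side as these genes. Of 24 contigs named as synaptotagmin, synapsin, or acetylcholine or glutamate receptors, 20 were lower in T9, with 3685 counts in T9 and 6110 in T25. Of all contigs of the table, 45.3% were lower and 54.7% higher. Among the 20, c6534_g1_i2 is an origin recognition complex protein by its protein match and Pfam domain. The largest fold of the list was on the higher side, acetylcholine receptor alpha-2 (c74709_g1_i4, 1079 and 35 counts), 28.5-fold (20.4 to 41.2). Odorant receptors, which mark olfactory neurons, were lower in 42 of 43 contigs (1039 and 5474 counts), and both photoreceptor contigs were lower (12 and 76 counts). On the other side, 20 of 27 gut contigs, found by the words trypsin, chymotrypsin and peritrophin, were higher, with 242806 counts in T9 and 9860 in T25. The words also caught 2 protease inhibitors (c71030_g1_i1 and c87446_g1_i3), which are among those 20. The fat body list, mostly fatty acid synthases with some vitellogenins, was higher in 26 of 28 contigs (251511 and 58249 counts). Its 2 lower contigs were the storage proteins of that tissue, arylphorin (c72825_g1_i1, 18 and 386 counts) and hexamerin (c78787_g1_i1, 24 and 200). Muscle markers were split 3 and 3 (48566 and 94659 counts). Of 7 cuticle protein contigs, which mark the epidermis, 2 were higher and 5 lower, while their summed counts were higher in T9 (25103 and 7333). The part of these tissues in the values of the transcription factors was not tested.

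POU domain class 2 transcription factor 2, a relative of Drosophila nubbin, had the largest count of a homeobox gene. Contig c25801_g1_i1 had 1106 counts in T9 and 146 in T25, 7.01-fold higher (5.89 to 8.39), at 36.29 FPKM against 4.73 FPKM. Contig c77580_g1_i1 of the same gene had 265 and 19 counts, 12.9-fold higher (8.10 to 21.8). Together they gave 1371 counts against 165, 7.69-fold higher (6.54 to 9.09). This gene alone supplied a large part of the 3620 homeobox counts in T9, where T25 had 2026.

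Prospero (c88403_g1_i1), a divergent homeodomain protein that in Drosophila acts in neuron fate and in hormone-producing gut cells, had 8 counts in T9 and 94 in T25, 12.7-fold lower (6.19 to 30.3). A contig described as tetra-peptide repeat homeobox protein 1 (c72862_g1_i1) had 3 and 102 counts and was 36.7-fold lower (12.2 to 181), the lowest log2 ratio (-4.78) among members with at least 50 counts. Its protein match was to a hypothetical protein and no homeobox domain was recorded in it. The name, and its place among the homeobox genes, therefore rest on the nucleotide match alone. GBX-2 (c81141_g1_i1), a factor of the midbrain border in vertebrates, had 3 and 18 counts, 6.48-fold lower (1.89 to 34.4). Zinc finger homeobox protein 3 (c113082_g1_i1) had 2 and 13 counts, 7.02-fold lower (1.59 to 64.1). These contigs were low in T9 by single-digit counts.

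On the higher side among the remaining homeobox genes were rough, DLX-5 and caupolican. Rough (c72203_g1_i2), named for a photoreceptor fate gene of Drosophila, had 863 counts in T9 and 336 in T25, 2.38-fold higher (2.09 to 2.70), close to the smallest fold the table holds. The distal limb factor DLX-5 (c28080_g1_i1) had 12 and 2 counts, 5.55-fold higher (1.24 to 51.1). Caupolican (c62177_g1_i1), an Iroquois factor, had 34 and 6 counts and was 5.24-fold higher (2.18 to 15.3). Rough, a gene named for the eye, was thus on the opposite side from Pax-6 and visual system homeobox 2.

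**Figure D3:**
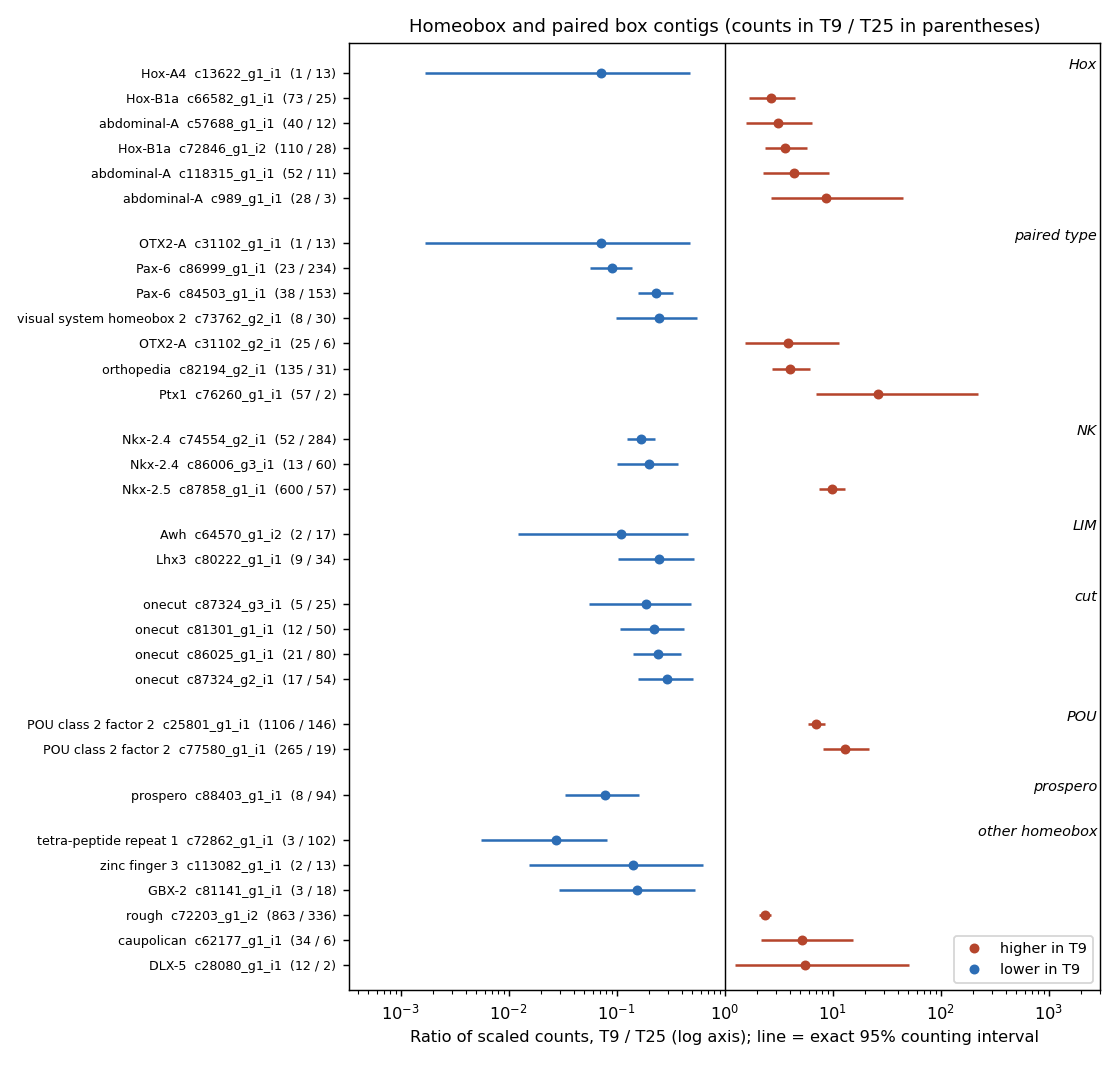
Ratio of scaled counts T9 / T25 (log axis) of 31 of the 33 homeobox and paired box contigs by class, with lines for the exact 95% counting interval and the raw counts beside each name. The 14 contigs in red lie right of 1 and the 17 in blue left of it, and the widest lines belong to contigs with 1 count in T9.

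Basic helix-loop-helix factors, among which are the genes that start neuron and muscle formation, were split 3 and 2. The contigs named amos, after a Drosophila gene that starts olfactory sense organs, were both higher. Contig c73739_g1_i1, tied to the Drosophila gene Fer2 in its ontology entry, had 1266 counts in T9 and 462 in T25, 2.54-fold higher (2.28 to 2.83). Contig c80871_g1_i1 had 104 and 20 counts and was 4.81-fold higher (2.96 to 8.2). The third was SUM-1 (c34439_g1_i1), named after a muscle factor of sea urchins, with 14 and 2 counts, 6.48-fold higher (1.49 to 58.7). Lower in T9 were pancreas transcription factor 1 subunit alpha (c83872_g1_i1), tied to Fer1, with 33 and 151 counts, 4.94-fold (3.37 to 7.44), and the neuronal class E protein 22 (c72297_g1_i2) with 5 and 35 counts, 7.56-fold (2.95 to 24.7). The contigs named amos lay opposite to the odorant receptors, of which 42 of 43 contigs were lower. Their identity is uncertain, because the larger is tied to Fer2 and the name of the other rests on a nucleotide match alone.

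Forkhead factors also lay on both sides. Forkhead box O (c89945_g4_i1), the factor held out of the nucleus by insulin signalling and active under starvation and stress, had 198 counts in T9 and 58 in T25, 3.16-fold higher (2.35 to 4.31). A contig matching slp1-like in the protein database and forkhead box D1-like in the nucleotide database (c87961_g1_i2) had 1894 and 410 counts, 4.27-fold higher (3.84 to 4.77). Forkhead box D1, or FD4, had 205 and 54 counts over the contigs c90022_g5_i1 (140 and 39) and c90022_g3_i1 (65 and 15), 3.51-fold higher (2.59 to 4.83). Forkhead box J1-A, known from vertebrates as the switch for motile cilia, was lower in 3 contigs. Those of 1 gene (c86618_g2_i1 with 18 and 97 counts, c86618_g3_i2 with 22 and 83) together had 40 and 180 counts, 4.86-fold lower (3.44 to 7.03), and c9753_g1_i1 had 4 and 20, 5.40-fold lower (1.81 to 21.7). By name, the J1-A contigs were thus lower and the O and D1 contigs higher. The 7 forkhead contigs had only 5 different best matches, so each name rests on few genes.

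Sox factors, relatives of the mammalian sex-determining gene that bend DNA through an HMG box, were higher in 4 of 5 contigs. SOX-9, a cartilage and testis factor in mammals, had 396 counts in T9 and 140 in T25 in c78987_g1_i1, 2.62-fold higher (2.15 to 3.20). In c72694_g1_i1 it had 380 and 135, 2.60-fold higher (2.13 to 3.19), at 30.94 FPKM against 10.84 FPKM. These contigs have different best matches and nearly the same fold. Contig c83659_g3_i1 had 225 and 37 counts, 5.63-fold higher (3.96 to 8.2). Its protein match was SOX-21, a neural progenitor factor, but its nucleotide match was an uncharacterized protein. No HMG box was recorded in it, so its name is uncertain. SOX-14 of the same assembly component (c83659_g2_i1) had 81 and 18, 4.16-fold higher (2.48 to 7.38). Sox-19b (c30848_g1_i1) was on the other side with 2 and 12 counts, 6.48-fold lower (1.44 to 59.6).

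GATA factors, which in insects run fat body, blood cell and midgut genes, were higher in T9. GATA-4 (c83730_g1_i4) had 247 counts in T9 and 57 in T25, 4.01-fold higher (3.0 to 5.45). GATA-2 (c70260_g1_i1) had 55 and 12 counts, 4.24-fold higher (2.24 to 8.70). Both lay on the side of most gut markers and of the fatty acid synthases and vitellogenins given above, opposite to arylphorin and hexamerin, and the part of those tissues was not tested. Nuclear receptor 2F6 (c103349_g1_i1), an orphan receptor of the family of Drosophila seven-up, had 1040 and 377 counts, 2.55-fold higher (2.27 to 2.88), at 15.04 FPKM against 5.38 FPKM. In contrast, Adf-1 (c87247_g1_i2), a MADF factor that in Drosophila binds the alcohol dehydrogenase promoter, had 92 and 314 counts and was 3.69-fold lower (2.91 to 4.71).

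Among C2H2 zinc finger contigs, 16 of 18 were lower in T9. A C2H2 domain was recorded in Pfam for only 1 of the 18, a Fez family contig that was higher in T9. The others were placed here by description alone, which does not always give the finger type. Zinc finger protein 853 (c88271_g1_i2) was the most abundant, with 549 counts in T9 and 2016 in T25, 3.97-fold lower (3.61 to 4.37), at 3.57 FPKM against 12.95 FPKM. Zinc finger and BTB domain-containing protein 6 (c85802_g1_i1) had 26 and 79 counts, 3.28-fold lower (2.08 to 5.33), and zinc finger protein 840 (c109981_g1_i1) had 16 and 58, 3.92-fold lower (2.22 to 7.30). Only the first of these and BTB protein 6 reached 100 counts in total, and of the other 16 contigs 14 were lower, beside 50.1% of all contigs with so few counts. In 8 of the 18 contigs a library held 3 counts or fewer. The 14 C2H2 contigs other than these and c90355_g6_i1 were named after their values were seen.

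C2H2 contigs of known neural or developmental genes were among the low counts. PRDM1, the Blimp-1 repressor, had 4 and 27 counts in T9 and T25 in c79806_g1_i1, 7.29-fold lower (2.54 to 28.7), and 5 and 31 in c55826_g1_i1, 6.70-fold lower (2.58 to 22.1). The jing contigs, named for a Drosophila gene of glia and trachea, had 7 and 25 counts in c73759_g1_i1 and 2 and 12 in c67541_g2_i1. Zinc finger protein 608, the relative of Drosophila scribbler, had 4 and 26 counts over its pieces c60327_g1_i1 (1 and 10) and c119553_g1_i1 (3 and 16), 7.02-fold lower (2.44 to 27.7). RE1-silencing transcription factor B (c12255_g1_i1), in vertebrates a repressor of neuronal genes outside neurons, had 2 and 17 counts, and zinc finger protein 236 (c75712_g2_i1) had 1 and 29, 31.3-fold lower (5.20 to 1280). All of these were lower in T9 with counts of at most 7 there. The remaining low contigs were zinc finger protein 260 (c89097_g3_i1, 3 and 17 counts), a further zinc finger protein 853 (c63026_g1_i1, 9 and 40) and a further BTB protein 6 (c113189_g1_i1, 1 and 13).

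A pair of C2H2 names appeared on both sides. Fez family zinc finger protein 2, a neuron subtype factor in vertebrates, had 8 and 36 counts in c58239_g1_i1, 4.86-fold lower (2.22 to 12.1), and 12 and 2 in c77663_g3_i1, 5.55-fold higher (1.24 to 51.1), with different best matches. Zinc finger and BTB protein 17 had 12 and 38 counts in c89332_g2_i1, 3.42-fold lower (1.75 to 7.19). Under the same name, c90355_g6_i1 had 40 and 12 counts and was 3.08-fold higher (1.59 to 6.46). In UniProt both of the last contigs match isoforms of Drosophila longitudinals lacking (lola), an axon guidance regulator whose isoforms end in different zinc fingers: isoforms F/I/K/T for the lower contig and A/B/D/L for the higher one. Contigs of these names therefore did not share a side.

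Zinc fingers of other types were lower in 3 of 3 contigs. SWIM domain-containing protein 8 (c14940_g1_i1) had 8 counts in T9 and 53 in T25, 7.16-fold lower (3.38 to 17.4). The CCCH contig c77897_g2_i1, related to the splicing regulator muscleblind, had 6 and 30 counts, 5.40-fold lower (2.21 to 15.9). The B-box contig ncl-1 (c19809_g1_i1), named after a nucleolus size gene of Caenorhabditis elegans, had 5 and 23 counts, 4.97-fold lower (1.85 to 16.7). CCCH fingers are known for binding RNA and B-boxes for binding protein, and no Pfam domain was recorded for any of the 3 contigs.

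**Figure D4:**
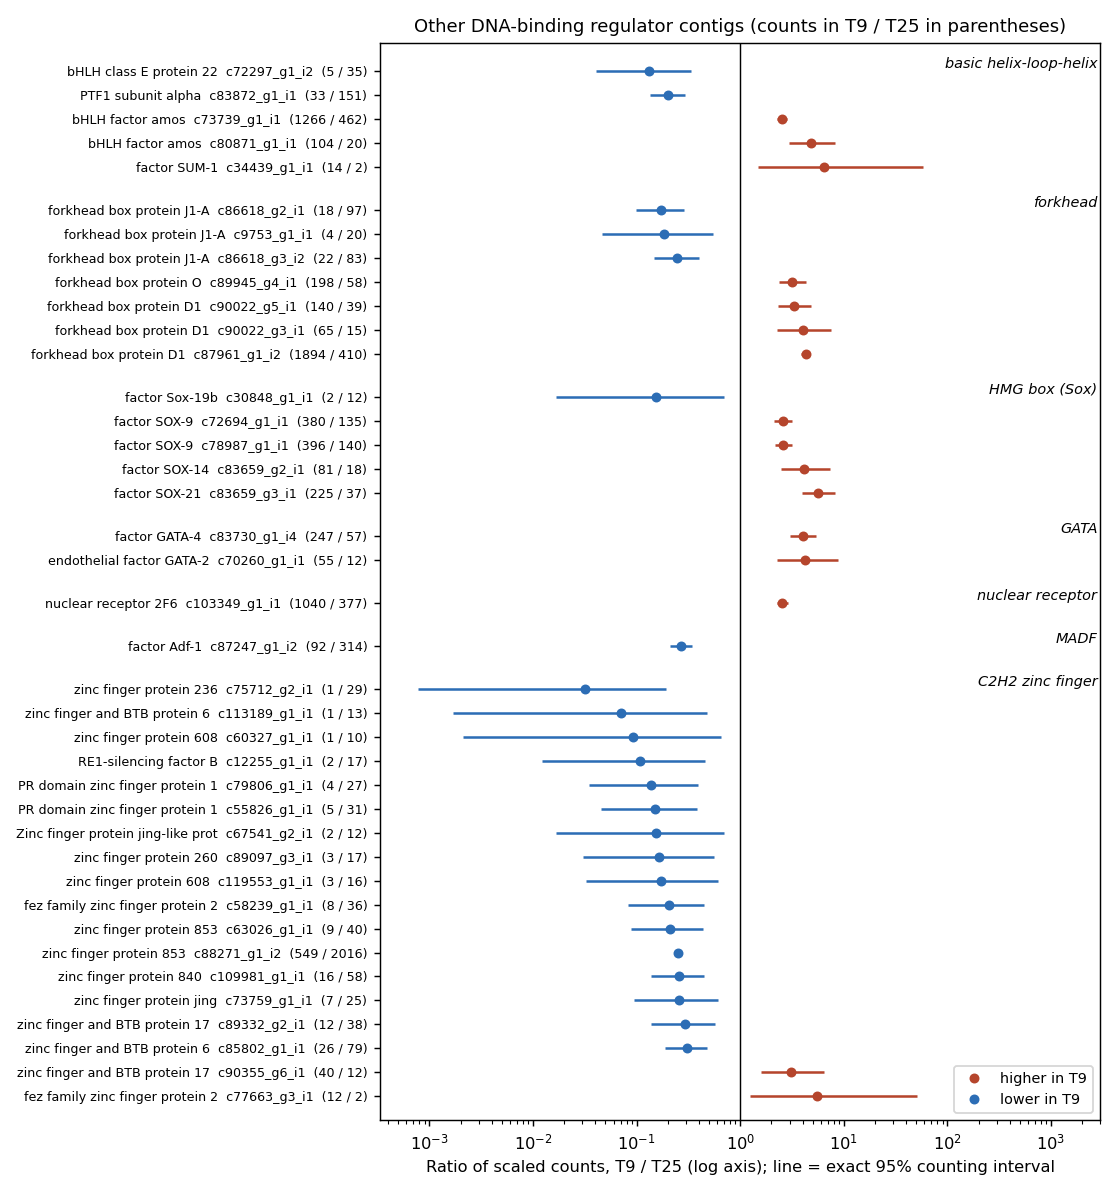
Ratio of scaled counts T9 / T25 (log axis) of the contigs with a basic helix-loop-helix, forkhead, Sox, GATA, nuclear receptor, MADF or C2H2 domain or name, with exact 95% counting intervals and raw counts beside each name. Points in red are higher and points in blue lower in T9, and the C2H2 block is blue in 16 of 18 lines.

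Contigs with a zinc finger name and a transposase-type domain or name formed a group apart. Their best matches are mostly BED or MYM-type zinc finger proteins, while the recorded Pfam domains were DUF4371, DUF659 or the hAT dimerization domain known from DNA transposons, and 8 of 10 were higher in T9, with 6888 counts in T9 and 684 in T25. The largest was c90507_g5_i3, with a hAT dimerization domain, which had 4439 and 208 counts and was 19.7-fold higher (17.2 to 22.8), the highest log2 ratio (4.30) among members with at least 50 counts. Its protein match was zinc finger MYM protein 1 of an aphid and its nucleotide match a glucuronosyltransferase of an ant, so its name is uncertain. Contig c82378_g1_i5 had 1539 and 331 counts, 4.30-fold higher (3.82 to 4.86), and c90723_g1_i3 had 337 and 24, 13.0-fold higher (8.58 to 20.6). Contig c90227_g1_i3 had 291 and 47 counts, 5.73-fold higher (4.20 to 7.97), and the pieces c87215_g3_i1 (159 and 17) and c87215_g2_i1 (53 and 12) of 1 component summed to 212 and 29 counts, 6.76-fold higher (4.58 to 10.3). Fewer counts stood behind c97242_g1_i1 (46 and 3) and c79553_g1_i1 (17 and 1). On the lower side stood 2 contigs of BED domain-containing protein 4, with 2 and 17 counts (c114488_g1_i1) and 5 and 24 counts (c113496_g1_i1). Without this group, 34 members were higher and 45 lower.

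Names and domains disagreed in 3 contigs, all higher in T9. The contig c113011_g1_i1, described as zinc finger protein 41, had 61680 counts in T9 and 19027 in T25, 3.0-fold higher (2.95 to 3.05), at 1786.87 FPKM against 543.90 FPKM. Its Pfam domain was E1_DerP2_DerF2, the lipid-recognition fold of MD-2-related and mite allergen proteins, and no zinc finger was recorded. This contig held most of the 81675 counts of all members in T9 and of the 27027 in T25, so sums over the members describe it and not the transcription factors. A contig named zinc finger MYM protein 1 with a Mab-21 domain (c87142_g1_i10), the fold of the DNA sensor cGAS, had 2436 and 205 counts, 11.0-fold higher (9.53 to 12.7). The contig c114141_g1_i1, named after the muscle factor mef2A but carrying an OTU deubiquitinase domain, had 19 and 2 counts, 8.79-fold higher (2.12 to 77.8). With these 3, the transposase-type group and the other zinc finger types set aside, 73 members had a DNA-binding regulator group, 31 of them higher and 42 lower.

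Contigs with regulator names outside the search words were counted for comparison. Of 22 such contigs, found by words such as hormone receptor, broad-complex, groucho, mediator or timeless, 9 were higher and 13 lower in T9. The words also caught 4 contigs that are not transcriptional regulators by their Pfam domains. They were 3 circadian clock-controlled proteins with a juvenile hormone-binding protein domain (1 higher and 2 lower) and a Ras-like protein (c16809_g1_i1, higher). A Pfam domain was recorded for only 8 of the 22. The rest, Krueppel homolog 2 (c80132_g2_i3) among them, were counted by name alone, so the split need not be one of regulators. Hormone receptor 3, a nuclear receptor of the ecdysone cascade that times moulting, was lower in 4 of 4 contigs, with 33 counts in T9 and 83 in T25 in the most abundant (c83777_g1_i1), 2.72-fold lower (1.80 to 4.20). FTZ-F1 (c16774_g2_i1), which acts later in that cascade, had 30 and 8 counts, 3.47-fold higher (1.55 to 8.76). Broad-complex contigs, early in the same cascade, were higher in 1 case and lower in 3. Ecdysone cascade genes therefore did not share a side. A timeless homolog (c89647_g1_i3) had 486 and 185 counts and was 2.43-fold higher (2.05 to 2.90).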

How the data were processed

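RNA of whole S. japonica workers was sequenced in 1 library per temperature. By the submitters' notes and the paper's methods, the authors trimmed reads with Trimmomatic 0.38, checked them with FastQC 0.11.7, assembled the pooled reads de novo with Trinity, aligned each library with Bowtie 1.1.2 and estimated with RSEM the deposited count of each contig, a whole number from 1 upward. The authors also deposited FPKM, the count over contig length and sequencing depth. The deposited log2 values are log2(CPM + 1) by the authors, and the library sizes used here were recovered from them. No genome build applies, because contigs come from the assembly, and the strand setting of the counting is not given in the sources used here. The table also holds the authors' fold changes and p-values for T25 against T9, which were not used. Table counts add up to 7176142 in T9 and 11259918 in T25.

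Ratios were computed with scipy 1.17.1, pandas 2.3.3 and numpy 2.4.6 under Python 3.11.15, adding 1 to each scaled count for log2 ratios, and plots were drawn with matplotlib 3.10.9. Intervals were tested on simulated counts without the filter that chose the listed contigs, so their coverage for contigs chosen in this way was not checked. The members, lists and the 5-fold limit were chosen with earlier results of these data known. By rule, and apart from 3 members that are not reported here but are included in the counts, the text names every homeobox contig, the 4 with the largest total in each other group, and the 8 with the highest and the 8 with the lowest log2 ratio among members with at least 50 counts, and contigs named beyond this were chosen after their values were seen. The words for other regulators were sought as whole words after it was seen that as letters they caught species names (114 contigs, 59 higher and 55 lower). Alternatives covered the scaling, the added count, count and fold limits, the database, the organism and the counting unit. The deposited table holds no sequences, so none is printed.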

Additional observations from a re-analysis of the deposited data

How the results depend on the processing

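The direction over all members depended on which members were counted. The median log2 ratio of the 89 members was -1.72, with 42 higher and 47 lower in T9. It was the value of a contig on the lower side, close to the gap between the sides, and is not a common size. It turned to 1.58 with members of at least 100 counts in total, to 1.45 with the NR (protein) description alone and to 0.79 with 1 unit per best match, and was -0.18 with members whose NR match is an ant. With at least 100 counts, 23 members were higher and 12 lower (9 and 5 at least 5-fold), homeobox contigs were 6 and 6, and zinc finger contigs 7 and 2. With the NR description alone, 22 were higher and 20 lower (11 and 12 at least 5-fold), homeobox contigs were 4 and 7, and zinc finger contigs 12 and 10, where the main split was 12 and 21. With an ant NR match, 24 were higher and 24 lower (10 and 14 at least 5-fold), homeobox contigs were 4 and 9, and zinc finger contigs 11 and 11. With 1 unit per best match, members were 40 and 38, homeobox units 13 and 13, and zinc finger units 12 and 19. A limit of 10-fold left 7 higher and 10 lower. Without contigs named for MYM-type or SWIM zinc fingers, 6 zinc finger contigs were higher and 20 lower. That filter kept the other transposase-type contigs, the CCCH and B-box contigs and c113011_g1_i1. The count limit and the database choices leave fewer contigs, merging pieces leaves fewer units, and the cause was not tested further.

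Scaling by the clean reads or by the depth behind the FPKM values moved log2 ratios by 0.131 and left the 11 summary values on the same side and within 1.5 times, and of 65 named contigs, none of which could change side under so small a shift, c113011_g1_i1 (3.0-fold) became 3.28-fold or 3.29-fold. Adding 0.5 or 5 counts gave medians of -1.75 and -1.37. Leaving out the transposase-type contigs, chosen after seeing the data, left 34 higher and 45 lower. No paired analysis was possible because each temperature has 1 library, and for the same reason no library could be left out. Depth limits the 25 members with 3 counts or fewer in a library, whose intervals are wide.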

Other observations

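A DNA-binding domain was recorded in Pfam for 9 contigs whose names fell outside the search words, 6 higher and 3 lower in T9. Of them, 2 (hormone receptor 3, c83777_g1_i1, and POU domain protein 2-like, c67495_g3_i2) are also among the 22 contigs counted above. Dimmed-like (c87743_g3_i1), matched in the protein database to neurogenic differentiation factor 1 and named after a basic helix-loop-helix factor of peptide-secreting cells in Drosophila, had 638 counts in T9 and 143 in T25, 4.13-fold higher (3.44 to 4.98). Odd-skipped, a segmentation gene, had 37 and 9 counts in c75735_g1_i1, 3.80-fold higher (1.80 to 8.96), and 21 and 2 in c75735_g2_i1, 9.72-fold higher (2.38 to 85.5). Both of its contigs carry a C2H2 domain, unlike most of the C2H2 group above, which was placed by description. Silk gland factor 1 (c89025_g1_i1), the forkhead factor known from silkworm, had 70 and 18 counts and was 3.60-fold higher (2.12 to 6.42). These were all on the higher side.

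The Hox gene Sex combs reduced (c84409_g3_i2), which specifies head and first thoracic segments, had 42 counts in T9 and 122 in T25, 3.14-fold lower (2.19 to 4.57). It lay opposite to the abdominal-A and Hox-B1a contigs. An inhibitory POU protein (c71483_g1_i1), a neuronal factor, had 1 and 16 counts and was 17.3-fold lower (2.69 to 725), on the other side from POU domain class 2 transcription factor 2. POU domain protein 2-like (c67495_g3_i2) had 77 and 23 counts and was 3.10-fold higher (1.92 to 5.17).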
